A study of Mus musculus with 41 samples.

Results

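Loss of *Hbs1l* was compared between whole mouse embryos at E8.5 and mouse embryonic fibroblasts (MEFs) in 12 ribosome profiling libraries of the 41 samples of the series, with 3 libraries in each group. Ribosome profiling sequences the stretches of mRNA that ribosomes shield from nuclease (ribosome protected fragments, RPF), counted here where they overlapped coding sequence. The embryos were C57BL/6NJ *Hbs1l*-/- and wild-type embryos, each library from pooled embryos, the mutants carrying an exon deletion in all tissues. The MEFs were on a C57BL/6 background and came from single embryos. The mutant cells were CAG-Cre ER; *Hbs1l* cKO (*Hbs1l* fl/-), in which a ubiquitous promoter drives a tamoxifen-dependent Cre, and the controls were CAG-Cre ER cells without a floxed *Hbs1l* allele. Both MEF groups were treated with tamoxifen and both carried the B6J mutation of the *n-Tr20* tRNA gene. The embryo libraries are labelled batch 1 and the MEF libraries batch 3. Tissue, strain, batch and the way the gene was lost (in all tissues of the embryo, or by tamoxifen-dependent Cre in culture) therefore cannot be told apart. According to the study, the mutant embryos stop developing after E8.5, the stage sampled. Each effect below was taken between mutant and control within 1 batch. The question was which genes responded to the loss in the same way in both settings, which in opposite ways, and where the effect in embryos minus the effect in MEFs (the difference) was larger than the spread between libraries.

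HBS1L is a translational GTPase that works with PELO. The pair recognises ribosomes whose A site is empty, as at the end of a truncated mRNA or in a 3' untranslated region, and helps ABCE1 to split them into subunits. A shorter product of the same gene shares its first exons with *Hbs1l* and links the exosome to the Ski complex, which degrade the mRNA from its 3' end. The deleted alleles target the long form, so some RPF on the gene can remain.

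*Hbs1l* (ENSMUSG00000019977.16, chr10:21295979-21368898, GRCm38, positions from Gencode M21) was at 52.98, 45.9 and 44.3 CPM (counts scaled to library size) in wild-type embryos and at 2.58, 2.43 and 8.06 CPM in *Hbs1l*-/- embryos. In MEFs it was at 42.9, 47.8 and 39.6 CPM in controls and at 3.18, 2.04 and 1.84 CPM in mutants. Every mutant library lay below every control library of its tissue. The log2 change was -3.64 in embryos (standard error 0.30, adjusted p = 3.08e-06) and -4.14 in MEFs (standard error 0.28, adjusted p = 1.87e-07, edgeR's quasi-likelihood test over the 12 libraries). The difference between the effects was 0.50 (standard error 0.44, adjusted p = 0.485). *Pelo*, which encodes its partner, changed by -0.32 in embryos (standard error 0.18, adjusted p = 0.251) and by -0.05 in MEFs (standard error 0.17, adjusted p = 0.890), and the difference of -0.28 (standard error 0.25) did not pass the test.

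The libraries held between 2634480 and 7298812 RPF in embryos and between 5922807 and 14347869 in MEFs, and 10515 genes had enough counts in both tissues to be tested. The spread was unequal. Over 7735 genes with at least 16 CPM, the median SD between replicates on the log2 scale was 0.24 in *Hbs1l*-/- embryos, 0.14 in wild-type embryos, and 0.09 in control and 0.10 in mutant MEFs. The fit over the 12 libraries uses 1 spread per gene for all groups. The embryo calls of the gene lists below are therefore also given from the 6 embryo libraries alone. Replicate 1 of the mutant embryos lay nearest to the wild type, with a median distance from the wild-type mean of 0.17 on the log2 scale against 0.33 for both other mutant libraries. Without it, 2872 genes were called for the difference, 1517 more positive and 1355 more negative in embryos, in place of the 1119 given below.

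Markers of other cell types also moved with the embryo groups. The summed RPF of 14 trophoblast markers was 140.5 to 184 CPM in wild-type and 466 to 1643 CPM in mutant embryos, with the highest value in replicate 3. *Prl3d1* and *Prl7a1*, hormones of trophoblast giant cells, were between 0.697 and 18.6 CPM in wild-type and between 38.3 and 230.9 CPM in mutant embryos, while *Ctsq* had no count in any library. The 10 primitive erythroid markers summed to between 11738 and 15189 CPM in wild-type and between 2878 and 7732 CPM in mutant embryos. The 7 heart markers summed to between 1616 and 1830 CPM and to between 680 and 995 CPM, respectively, most of it *Actc1*. The 10 endothelial markers summed to between 490 and 518 CPM in wild-type and between 596 and 761 CPM in mutant embryos, but did not move together. *Pecam1*, *Cdh5* and *Flt1* were higher in every mutant library and *Emcn* lower, at 12.5 CPM or less, while *Kdr*, *Tek* and *Tie1* overlapped. The 6 markers on the keratinocyte list did not move together: *Cdh1* and *Epcam*, which mark epithelia in general, were higher in every mutant library, and *Trp63* and *Krt15* lower, at 4.65 CPM or less. The 15 visceral endoderm and yolk sac markers overlapped between the groups, at 15944 to 18523 CPM in wild-type and at 13012, 26494 and 19857 CPM in mutant embryos. The 4 Y-linked genes summed to 19.5, 31.7 and 107 CPM in the wild-type and to between 168 and 196 CPM in the mutant pools. Among MEFs, replicate 3 of the controls had 256.7 CPM of Y-linked RPF and the other 5 libraries at most 1.94 CPM. Fibroblast markers summed to between 41937 and 47423 CPM in MEFs. Of the 10, 6 rose and none fell in MEFs (9 and 1 with the MEFs fitted alone) and 4 fell in embryos (2 with the embryos fitted alone), and *Col3a1*, *Col1a2* and *Postn*, described below among matrix genes, are on this list. In whole embryos, fewer cells of a type and less RNA per cell cannot be told apart, and the part of these markers in the results below was not tested.

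**Figure D1:**
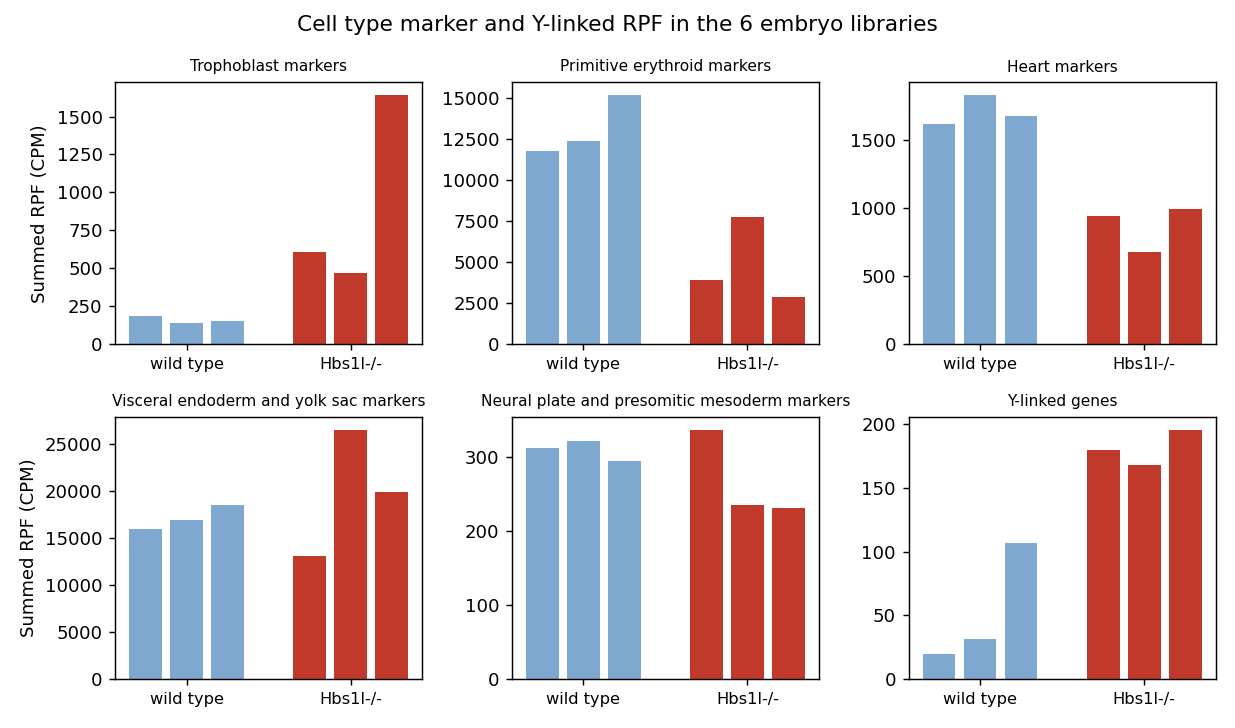
Summed RPF of marker genes and of Y-linked genes (CPM) in the 3 wild-type and 3 *Hbs1l*-/- embryo libraries, one bar per library in order of replicate number. Trophoblast RPF was higher and erythroid and heart RPF lower in each mutant library than in each wild-type library.

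Most genes called on loss of *Hbs1l* in one tissue were not called in the other. In embryos, 942 of 10515 genes (8.96%) passed the threshold of 0.05, 472 higher (4.49%) and 470 lower (4.47%). From the 6 embryo libraries alone, 147 passed (1.4%), 64 higher (0.609%) and 83 lower (0.789%). In MEFs, 1569 genes passed (14.9%), 862 higher (8.2%) and 707 lower (6.72%), and 3617 (34.4%) from the 6 MEF libraries alone, 1836 higher (17.5%) and 1781 lower (16.9%). For the difference between the tissues, 1119 genes passed (10.6%), with 573 more positive in embryos (5.45%) and 546 more negative (5.19%). limma-voom, which gives each group its own weight, called 1031 (9.81%), with 482 more positive (4.58%) and 549 more negative (5.22%), and 916 genes were called by both. Of the 1119, 310 had a called effect in embryos and not in MEFs, 543 in MEFs and not in embryos, 76 in both and 190 in neither. Across the 10515 genes the effects had a Pearson correlation of 0.10 and a Spearman correlation of 0.08, and 52.99% had the same sign. Genes are not independent replicates, so no test was made of these values.

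Both effects were called with the same sign for 99 genes (0.942%) and with opposite signs for 71 (0.675%). The shared genes comprised 48 that rose in both tissues (0.456%) and 51 that fell in both (0.485%). Of the 71, 43 rose in embryos and fell in MEFs (0.409%), and 28 fell in embryos and rose in MEFs (0.266%). Set against the embryo calls, 48 of the 472 genes that rose there also rose in MEFs and 43 fell. Of the 470 that fell in embryos, 28 rose in MEFs and 51 fell. In MEFs 8.2% of all genes rose and 6.72% fell. Whether the shared or opposite counts exceed those of unrelated effects was not tested. With each tissue fitted on its own 6 libraries, 47 genes were shared (0.447%) and 21 opposite (0.2%). Leaving out each library in turn gave 38 to 586 shared and 15 to 365 opposite genes.

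**Figure D2:**
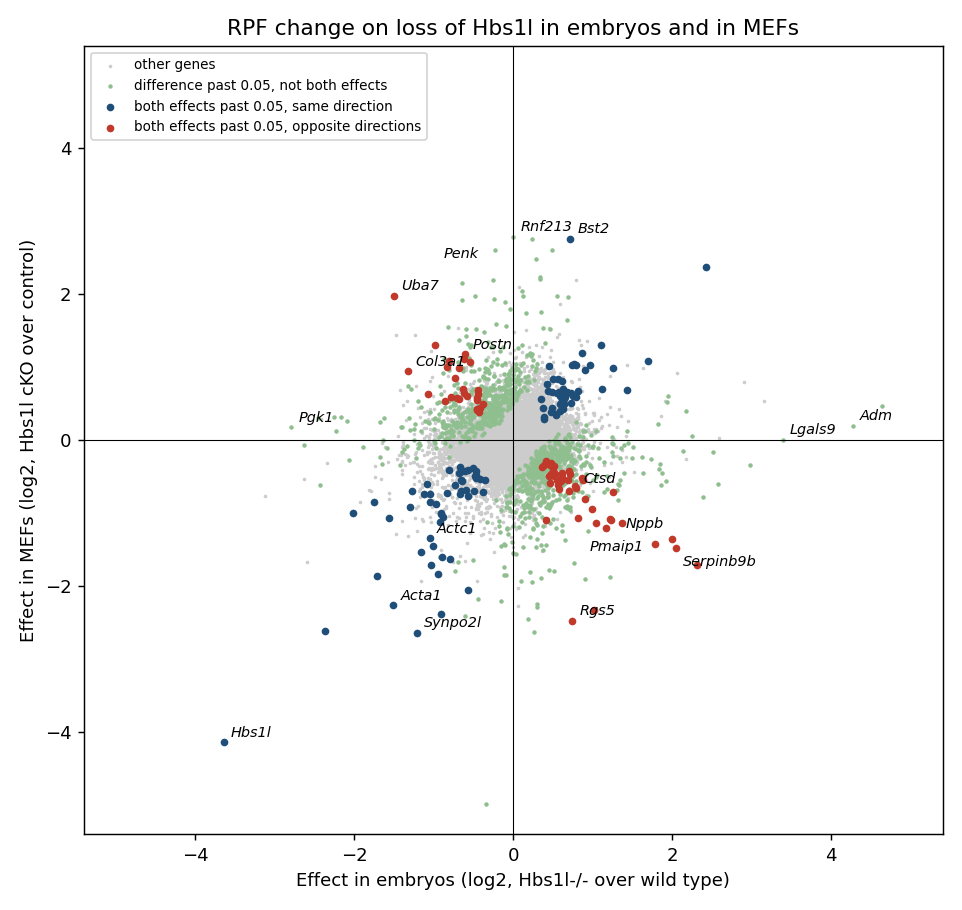
Effect of *Hbs1l* loss on RPF in embryos (horizontal axis) and in MEFs (vertical axis) for the 10515 genes, both as log2 of mutant over control. The 99 shared genes lie in the lower left and upper right and the 71 opposite genes in the other quadrants. *Hbs1l* has the lowest value in embryos, and in MEFs only *Pcbd1*, with 1.58 to 1.94 CPM in controls and no count in 2 of the mutant libraries, lies below it.

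The shared decrease was led by genes of the contractile apparatus. Of 31 sarcomere and cardiomyocyte genes tested, 14 fell and 1 rose in embryos, 17 fell and none rose in MEFs, and 10 fell in both. With the embryos fitted alone, again 14 fell and 1 rose. The list medians were -0.72 in embryos and -0.73 in MEFs, against 0.01 and 0.00 over all genes tested. For the difference 3 members were called, all more positive in embryos. Without replicate 1 of the mutant embryos 7 were more positive and 3 more negative, against 1517 and 1355 of all 10515 genes. Of 18 smooth muscle contractile genes, 6 fell in embryos (2 with the embryos fitted alone), 11 fell in MEFs and 5 fell in both.

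*Acta1*, the actin of skeletal muscle thin filaments, was at 83.3, 87.3 and 85.9 CPM in wild-type and at 33.7, 19.7 and 36.8 CPM in mutant embryos. It was at 174.8, 223 and 152 CPM in control and at 26.9, 40.3 and 48.5 CPM in mutant MEFs. The groups did not overlap in either tissue. Its log2 change was -1.51 in embryos (standard error 0.23, adjusted p = 0.00199) and -2.26 in MEFs (standard error 0.21, adjusted p = 3.37e-06), and the difference of 0.75 (standard error 0.30, adjusted p = 0.121) did not pass. *Actc1*, the cardiac actin, was at 957, 982 and 1003 CPM in wild-type and at 501, 348 and 569 CPM in mutant embryos. In MEFs its 33.2, 43.4 and 49.2 CPM in controls stood against 9.19, 27.99 and 15.7 CPM in mutants. *Actc1* therefore fell in both tissues from levels that differed widely, by 1.05 on the log2 scale in embryos and by 1.34 in MEFs. *Ttn*, the giant spring of the sarcomere, fell by 1.71 and 1.86, and *Synpo2l*, which encodes a Z-disc protein, fell by 1.21 and 2.64, the embryo call being lost in the embryo libraries alone (adjusted p = 0.0787).

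*Myl9*, a regulatory light chain of smooth muscle and non-muscle myosin, fell by 0.92 in embryos (adjusted p = 0.00191) and by 1.01 in MEFs (adjusted p = 3.17e-05). *Des*, the muscle intermediate filament desmin, fell by 1.04 and 0.85, *Tagln*, an actin-binding protein of smooth muscle, by 0.74 and 0.62, and *Acta2*, the smooth muscle actin, by 0.38 and 0.71. The effects of *Tagln* and *Acta2* in embryos were not called from the embryo libraries alone (adjusted p = 0.0807 for *Tagln*). The cartilage collagen *Col2a1* was also among the lowest shared genes, with changes of -1.56 in embryos and -1.06 in MEFs. Heart marker RPF was lower in each mutant embryo library, and the 6 skeletal muscle markers summed to between 167 and 250.5 CPM in control and between 32.6 and 56.8 CPM in mutant MEFs, most of it *Acta1* itself.

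*Nppb* and *Tbx20*, also on the sarcomere and cardiomyocyte list, had positive differences. *Nppb*, the natriuretic peptide B gene, was at 7.32, 6.87 and 5.27 CPM in wild-type and 34.7, 17.2 and 24.8 CPM in mutant embryos. In MEFs it was at 16.9, 18.1 and 13.0 CPM in controls and 4.81, 4.90 and 8.88 CPM in mutants. The gene rose by 2.00 in embryos (standard error 0.31, adjusted p = 0.00242) and fell by 1.35 in MEFs (standard error 0.27, adjusted p = 0.00290). *Tbx20*, a transcription factor of the heart, fell by 2.29 in MEFs and had a change of 0.29 in embryos that did not pass (adjusted p = 0.508).

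The shared increase was smaller and less uniform. The 6 highest shared genes by the smaller of the 2 effects were *Raet1d* (1.26 in embryos and 0.98 in MEFs), *Tor3a* (0.91 and 0.96), *Nemp1* (0.79 and 1.04), *Iqgap2* (0.76 and 1.04), *Slc16a10* (0.74 and 1.03) and *Bst2*. *Raet1d* encodes a ligand of the NKG2D receptor and *Nemp1* a protein of the inner nuclear membrane. *Nemp1* was at 20.6, 22.6 and 21.1 CPM in wild-type and 36.1, 38.3 and 37.4 CPM in mutant embryos. In MEFs *Nemp1* was at 6.54, 7.11 and 10.4 CPM in controls and 18.3, 15.9 and 14.8 CPM in mutants. None of these 6 was called from the embryo libraries alone, where the adjusted p of *Nemp1* was 0.0510. Of 50 ribosome biogenesis genes, 4 rose in both tissues. Singly, 6 rose and 2 fell in embryos (none with the embryos fitted alone) and 26 rose and 1 fell in MEFs, with medians of 0.12 and 0.38, and for the difference 10 were more negative in embryos and none more positive (14 and none with limma-voom). The shared genes included the nucleolar proteins *Ncl* (0.59 and 0.49) and *Nop58* (0.63 and 0.51). *Slc7a5*, the large neutral amino acid transporter, rose by 0.59 and 0.39.

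Lysosome genes that passed in embryos rose, and those that passed in MEFs fell, with 3 genes called in both. Of 49 tested, 10 rose and none fell in embryos, none rose and 14 fell in MEFs, and 21 were more positive in embryos for the difference with none more negative (19 and none with limma-voom). With the embryos fitted alone 1 rose. Over the mutant embryo libraries the lysosome sum was 8096, 10693 and 10410 CPM, lowest in replicate 1 as for the visceral endoderm and yolk sac markers, whose part in this result was not tested. The median was 0.28 in embryos and -0.27 in MEFs, and the median difference of 0.54 stood against -0.01 over all genes. *Ctsd*, the aspartic protease cathepsin D (chromosome 7 from 142375911 to 142388038), was at 105, 96.4 and 104 CPM in wild-type and 128, 195 and 208 CPM in mutant embryos. In MEFs it was at 711, 728 and 690 CPM in controls and 446, 455 and 444 CPM in mutants. *Ctsd* rose by 0.79 in embryos (standard error 0.14, adjusted p = 0.00563) and fell by 0.66 in MEFs (standard error 0.13, adjusted p = 0.00278), with a difference of 1.45 (standard error 0.19, adjusted p = 0.000462).

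The cysteine protease *Ctsl* was at 1425, 1073 and 1404 CPM in wild-type and 1484, 2350 and 2068 CPM in mutant embryos, and at 911, 1023 and 873 CPM in control and 620, 621 and 655 CPM in mutant MEFs. Replicate 1 of the mutant embryos was close to the wild type for both cathepsins. The peptidase *Tpp1* rose by 0.45 in embryos and fell by 0.49 in MEFs. Of these 3, *Ctsd* was also called from the embryo libraries alone (adjusted p = 0.0413), and *Ctsl* and *Tpp1* were not (adjusted p = 0.106 and 0.116). The autophagy receptor *Sqstm1*, which is not on the list, rose by 0.51 and fell by 0.50. It was picked from the opposite genes after its values were seen.

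Among p53 targets, calls were mostly on the MEF side. Of 25 tested, with medians of -0.06 in embryos and -0.24 in MEFs, 2 rose in embryos, 7 fell and 1 rose in MEFs, and 6 were more positive in embryos for the difference (3 with limma-voom), and neither rise in embryos was called from the embryo libraries alone. *Pmaip1*, the BH3-only gene also called Noxa, was at 4.18, 3.54 and 1.55 CPM in wild-type and 10.7, 14.6 and 5.80 CPM in mutant embryos. It was at 91.2, 109 and 78.2 CPM in control and 31.3, 30.2 and 41.9 CPM in mutant MEFs. The difference was 3.20 (standard error 0.41, adjusted p = 0.000306). *Ccng1*, a cyclin induced by p53, rose by 0.70 in embryos and fell by 0.69 in MEFs. *Perp*, a membrane protein of apoptosis and desmosomes, fell by 1.78 in MEFs (adjusted p = 1.81e-05) with a change of 0.45 in embryos (adjusted p = 0.221), and *Cdkn1a*, which encodes p21, passed in neither.

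Another 4 of the genes named rose in embryos and fell in MEFs. *Serpinb9b*, a serine protease inhibitor, had a difference of 3.53 (standard error 0.63, adjusted p = 0.00304). Its level in mutant embryos was 17.1, 9.29 and 64.2 CPM against 6.27, 6.65 and 7.13 CPM in the wild type, with the highest value in the replicate that also had the most trophoblast RPF. *Rgs5*, a regulator of G-protein signalling in pericytes, was at 106, 138 and 104 CPM in control and 17.2, 18.4 and 26.7 CPM in mutant MEFs, and rose by 0.74 in embryos (adjusted p = 0.0475 over 12 libraries and 0.125 from the embryo libraries alone). *Cox6b2* had a difference of 2.51 and *Nup62cl* of 2.33. From the embryo libraries alone, *Nup62cl* was called in embryos (adjusted p = 0.0275), and *Serpinb9b* and *Cox6b2* were not (adjusted p = 0.0597 and 0.0981).

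**Figure D3:**
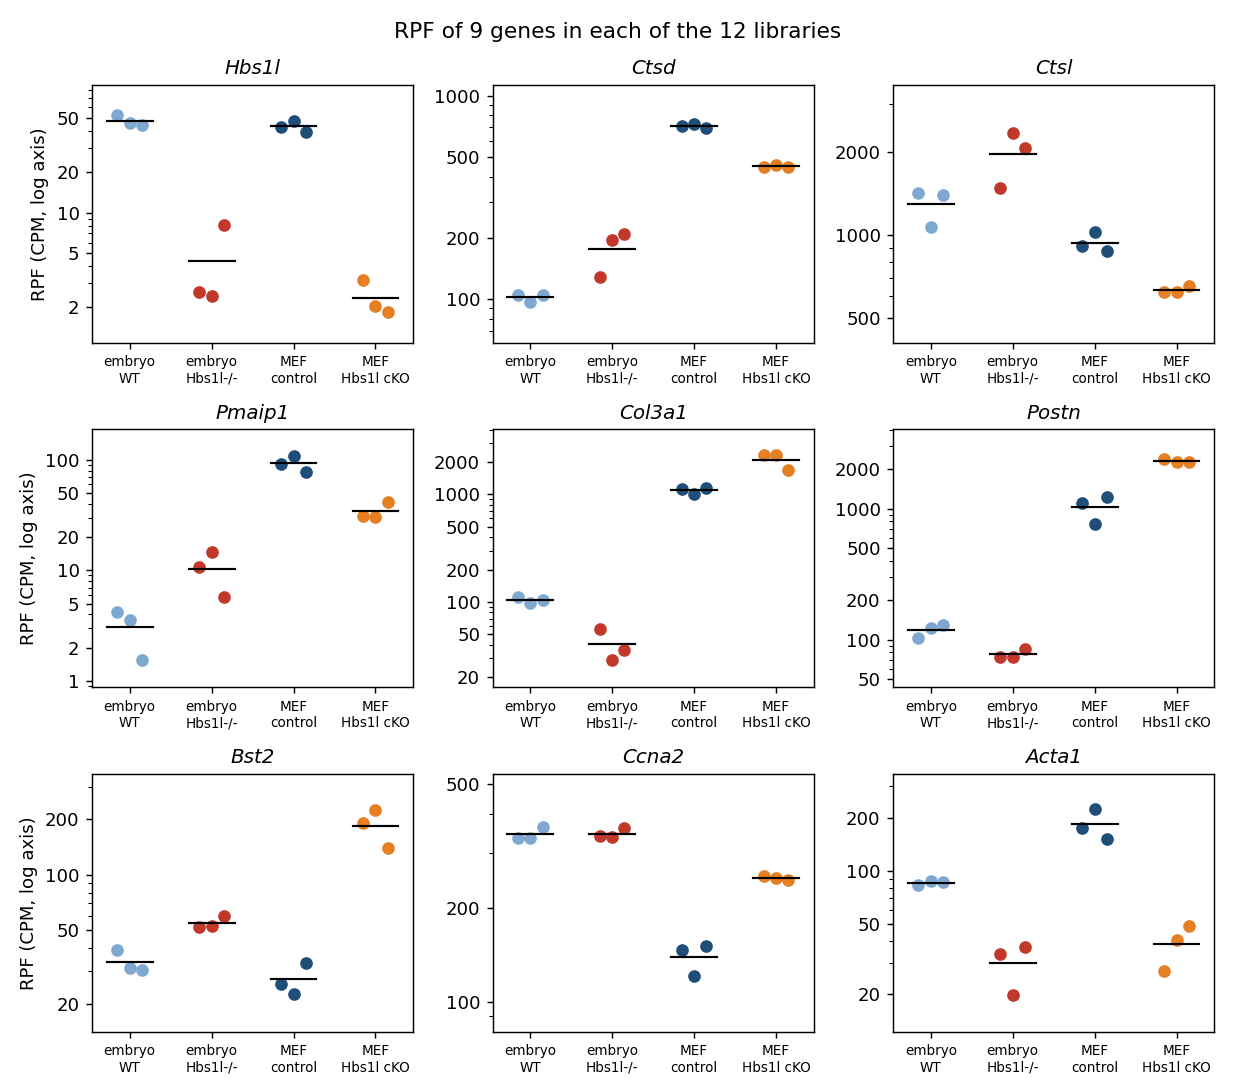
RPF (CPM, log axis) of 9 genes in each library of the 4 groups, with points for libraries and lines for group means. *Hbs1l* and *Acta1* were lower in both mutants, *Ctsd*, *Ctsl* and *Pmaip1* higher in mutant embryos and lower in mutant MEFs, and *Col3a1* and *Postn* the reverse.

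Matrix genes that passed in embryos mostly fell, and in MEFs they were called in both directions. Of 21 fibrillar and basement membrane collagens, 10 fell and none rose in embryos (5 fell with the embryos fitted alone), while 6 rose and 5 fell in MEFs. For the difference, 9 were more negative in embryos and none more positive, and the median difference was -0.98. limma-voom called 5 of the 21. Without replicate 1 of the mutant embryos 14 were more negative, against 1355 of all 10515 genes. *Col3a1*, the chain of type III collagen, was at 110.5, 98.8 and 104 CPM in wild-type and 56.7, 28.7 and 36.1 CPM in mutant embryos. In MEFs it was at 1111, 1017 and 1139 CPM in controls and 2299, 2297 and 1701 CPM in mutants. It fell by 1.33 in embryos (standard error 0.19, adjusted p = 0.00191) and rose by 0.95 in MEFs (standard error 0.17, adjusted p = 0.00122).

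*Col1a2* fell by 0.58 in embryos and rose by 0.60 in MEFs, and *Col1a1*, the other chain of type I collagen, fell by 0.88 in embryos with 0.22 in MEFs (adjusted p = 0.366). *Postn*, the matricellular protein periostin, was at 103, 122 and 129 CPM in wild-type and 73.9, 74.1 and 85.8 CPM in mutant embryos. It was at 1095, 761 and 1224 CPM in control and 2411, 2276 and 2262 CPM in mutant MEFs. Its difference was -1.78 (standard error 0.21, adjusted p = 0.000185). The embryo calls of *Postn* and *Col1a2* were lost in the embryo libraries alone (adjusted p = 0.0597 and 0.141). Of 40 other matrix genes, 8 fell and 1 rose in embryos (1 fell with the embryos fitted alone), 11 rose and 4 fell in MEFs, and 15 were more negative in embryos and none more positive (11 and 1 with limma-voom). Among them *Emilin2*, an elastic fibre glycoprotein, rose by 2.15 in MEFs, and *Thbs4*, a thrombospondin, by 1.93, each with a change of -0.65 in embryos that did not pass.

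The remaining opposite genes lower in embryos included *Uba7*, the activating enzyme for the ubiquitin-like ISG15. It was at 5.93, 8.42 and 11.2 CPM in wild-type and 2.22, 4.42 and 2.58 CPM in mutant embryos, and at 2.21, 3.05 and 2.93 CPM in control and 11.2, 14.9 and 6.93 CPM in mutant MEFs. Its difference of -3.48 (standard error 0.50, adjusted p = 0.000705) had the lowest value of the genes named. *Olfml3*, *Cdc25b*, a phosphatase that activates cyclin-dependent kinases, and *Stab1*, a scavenger receptor, had differences of -2.29, -1.89 and -1.84. From the embryo libraries alone *Stab1* was called in embryos (adjusted p = 0.0493), and *Uba7*, *Olfml3* and *Cdc25b* were not (adjusted p = 0.0841, 0.0597 and 0.106).

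Most interferon-stimulated genes tested rose in MEFs. Of the 52 on the list, 11 had enough counts in both tissues to be tested. Of these, 10 rose in MEFs and 1 rose in embryos (none with the embryos fitted alone), and 7 were more negative in embryos for the difference (5 with limma-voom). All 11 had positive values in both tissues, with medians of 1.65 in MEFs and 0.40 in embryos. *Bst2*, which tethers budding virions to the membrane, was at 25.5, 22.6 and 33.4 CPM in control and 191, 224 and 139 CPM in mutant MEFs. In embryos it was at 39.0, 31.2 and 30.4 CPM in the wild type and 52.2, 53.1 and 59.7 CPM in mutants. It rose by 2.76 in MEFs (adjusted p = 1.14e-07) and by 0.71 in embryos (adjusted p = 0.0276, and 0.0597 from the embryo libraries alone). The transcription factors *Stat2* and *Irf9*, which act downstream of the interferon receptor, rose in MEFs by 2.04 and 2.76, with 0.10 and 0.23 in embryos, neither of which passed. *Rnf213*, a large E3 ligase outside the list, was at 97.4, 83.0 and 114 CPM in control and 714, 814 and 501 CPM in mutant MEFs, with an embryo change of -0.01 (standard error 0.25). *Penk*, the proenkephalin gene, rose by 2.60 in MEFs and had -0.24 in embryos (standard error 0.40). The summed macrophage and leukocyte markers were between 125 and 169 CPM in control and between 216 and 293 CPM in mutant MEFs.

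Most genes of cell division on the lists rose in MEFs and few passed in embryos. Of 40 mitosis genes, 39 rose in MEFs, 1 rose and 1 fell in embryos (1 and none with the embryos fitted alone), and 20 were more negative in embryos for the difference with none more positive (23 and none with limma-voom). The medians were 0.69 in MEFs and 0.15 in embryos. Of 45 DNA replication genes, 32 rose in MEFs, 4 rose and 1 fell in embryos (none with the embryos fitted alone), and 19 were more negative for the difference with none more positive. *Ccna2*, the cyclin A of S phase and G2, was at 334, 335 and 363 CPM in wild-type and 339, 337 and 360 CPM in mutant embryos, a change of 0.00 (standard error 0.10). In MEFs it rose from 147, 121 and 151 CPM to 252, 250 and 245 CPM. The MEF change was 0.84 (standard error 0.10, adjusted p = 5.10e-05), and in controls the RPF of *Ccna2* was higher in every embryo library than in every MEF library. *Plk1*, the mitotic kinase, *Ncapd2*, a condensin subunit, and *Mcm5*, of the replicative helicase, rose in MEFs by 0.71, 0.91 and 0.88. Their embryo changes of -0.23, -0.07 and -0.24 did not pass. *Hmmr*, a spindle protein, rose in both tissues, by 0.81 and 0.67.

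**Figure D4:**
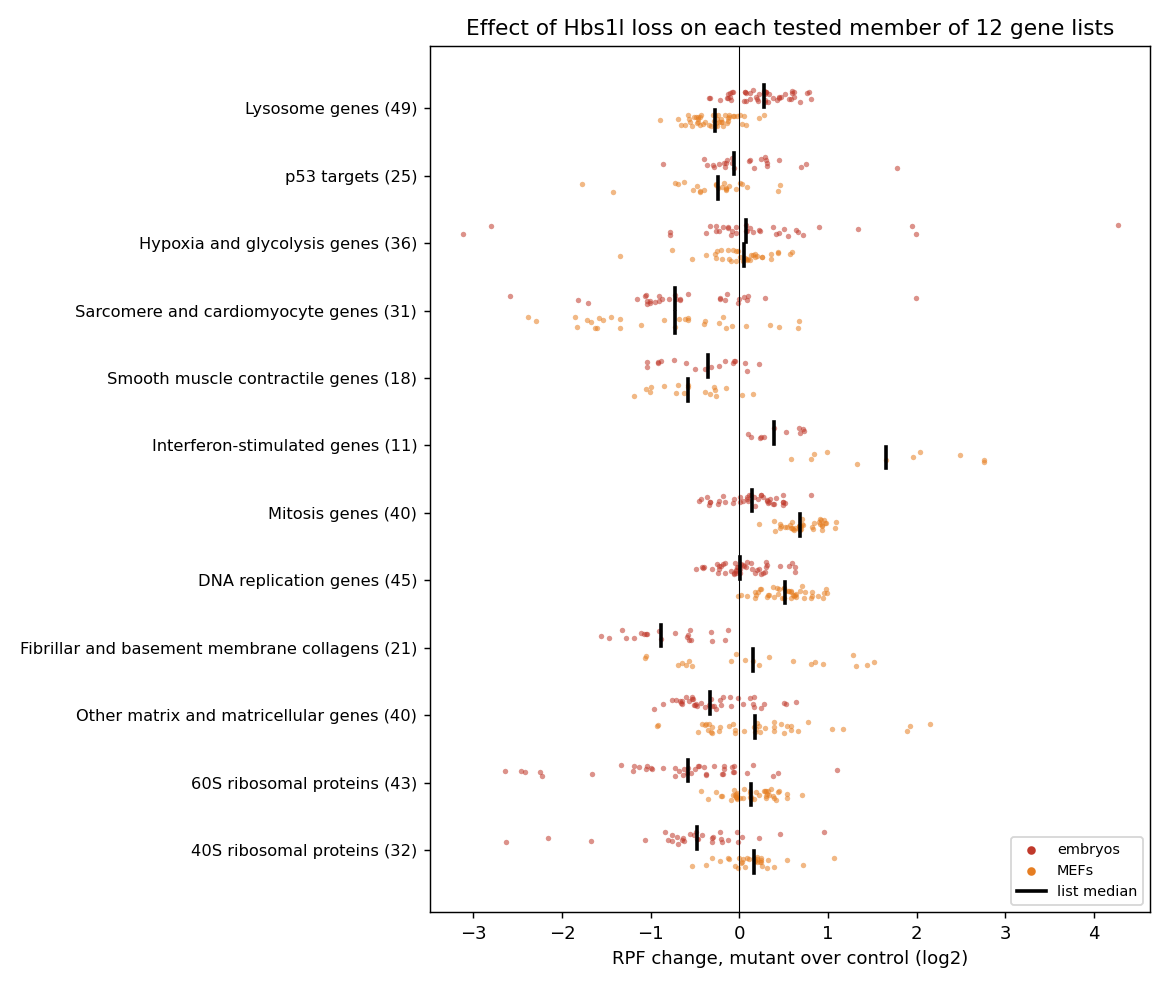
Effect of *Hbs1l* loss (log2) on each tested member of 12 gene lists in embryos and in MEFs, with the number of members in parentheses and a bar at each list median. The medians lie on opposite sides of 0 for lysosome genes, both matrix lists and both ribosomal protein lists. They lie on the same side for the sarcomere, smooth muscle, interferon, mitosis, DNA replication, p53 and hypoxia lists.

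Of the 8 named genes with the largest positive difference, 4 rose in embryos and did not pass in MEFs: *Adm*, *Procr*, *Lgals9* and *Trpv2*. From the MEF libraries alone, *Procr* and *Trpv2* fell (adjusted p = 0.0348 and 0.00712), and *Trpv2* RNA also fell, by 0.43 (adjusted p = 0.0237). *Adm*, which encodes the vasodilator peptide adrenomedullin (chromosome 7 from 110627661 to 110629820), was at 8.02, 14.2 and 9.61 CPM in wild-type and 205, 123 and 311 CPM in mutant embryos. In MEFs *Adm* was at 88.1, 111 and 96.9 CPM in controls and 129.5, 107 and 102 CPM in mutants. It rose by 4.27 in embryos (standard error 0.30, adjusted p = 5.70e-07, and 4.34e-06 from the embryo libraries alone), with 0.20 in MEFs (standard error 0.23). *Procr*, the endothelial protein C receptor, was at 5.93, 5.32 and 6.82 CPM in wild-type and 55.9, 29.6 and 56.1 CPM in mutant embryos, and its difference was 3.32 (standard error 0.33, adjusted p = 3.70e-05). *Lgals9*, the lectin galectin-9, was at 31.8, 10.6 and 101 CPM in mutant embryos, and *Adm*, *Lgals9* and *Trpv2* were all highest in replicate 3, which had the most trophoblast RPF. Among embryo libraries it also had the most RPF of 2 decidua markers (278 CPM, elsewhere at most 142 CPM). The same held for mitochondrially encoded genes (10797 CPM, elsewhere at most 5600 CPM). *Trpv2*, a cation channel, had a difference of 3.18.

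Of 36 hypoxia and glycolysis genes, a list that contains *Adm* and *Nppb*, 8 rose and 2 fell in embryos (4 and 2 with the embryos fitted alone), and 2 rose and 1 fell in MEFs. For the difference 7 were more positive and 2 more negative (7 and 4 with limma-voom), against 5.45% and 5.19% of all genes. The 2 that fell in embryos were *Pgk1* and *Pgam1*, which have near-identical copies and uncertain values. *Egln3*, a prolyl hydroxylase of hypoxia-inducible factor, rose by 1.34 in embryos with -0.25 in MEFs, and *Ndrg1* rose by 1.95 with 0.60 in MEFs (adjusted p = 0.0630). Of 25 ATF4 targets, 8 rose and none fell in embryos (2 and none with the embryos fitted alone), and 6 rose and none fell in MEFs (10 and 1 with the MEFs fitted alone). *Slc7a3*, a cationic amino acid transporter, was at 14.99, 15.95 and 16.7 CPM in wild-type and 65.6, 61.3 and 39.0 CPM in mutant embryos, and its difference was 1.60 (standard error 0.26, adjusted p = 0.00182). *Asns*, asparagine synthetase, rose by 0.75 in embryos with 0.23 in MEFs, and its difference of 0.52 had an adjusted p of 0.0586. Of 35 genes of folding and translocation in the endoplasmic reticulum, 11 rose in embryos, none from the embryo libraries alone, and none passed in MEFs (3 rose and 6 fell with the MEFs fitted alone). Over all genes, 4.49% rose and 4.47% fell in embryos (0.609% and 0.789% with the embryos fitted alone). In MEFs 8.2% of all genes rose and 6.72% fell, and the fit of the MEFs alone called 17.5% higher and 16.9% lower.

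Ribosomal protein genes that passed in embryos mostly fell there. Of 43 genes of the large subunit, 12 fell and 3 rose in embryos and 4 rose in MEFs, and of 32 of the small subunit, 11 fell in embryos and none passed in MEFs. With the embryos fitted alone, 5 and 2 fell, and with the MEFs fitted alone, 9 and 8 rose and none fell. Over all genes, 4.47% fell in embryos (0.789% with the embryos fitted alone). In MEFs, 8.2% of all genes rose (17.5% with the MEFs fitted alone). In each list 11 were more negative for the difference and none more positive, and limma-voom called 13 and 14. Without replicate 1 of the mutant embryos 26 and 17 were more negative, with 2 and 1 more positive. Over all 10515 genes, 1355 were more negative and 1517 more positive in that fit. Many of these genes have near-identical copies, and 56 of the 75 have at least 1 pseudogene that carries their name in the annotation, so their values are uncertain. The part of such copies in these changes was not tested. *Rpl10a* was at 124, 103 and 84.9 CPM in wild-type embryos, at 40.5, 4.64 and 4.51 CPM in mutant embryos, and between 12.1 and 18.5 CPM in all 6 MEF libraries. The glycolytic gene *Pgk1* was at 127.6, 122 and 75.6 CPM in wild-type embryos, at 33.5, 2.65 and 4.19 CPM in mutant embryos and between 11.2 and 19.2 CPM in MEFs, and its difference was -2.97. For both, replicate 1 was the highest mutant embryo library. Without it the difference was -5.18 for *Pgk1*, -4.76 for *Rpl10a* and -4.15 for *Rpl27a*. The difference of *Rpl10a* (-2.76) was called in 17 of 18 alternatives, not without replicate 1 of the mutant MEFs, and that of *Rpl27a* (-2.56) in 10 of 18. Among ribosomal protein genes the median embryo change was -0.53 for the 56 with such a pseudogene and -0.45 for the 19 without, and 15 and 7 of them, respectively, were more negative for the difference. Copies annotated under other names were not counted, so this split cannot separate genes with copies from genes without.

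Of 25 ribosome rescue and quality control genes, 1 was more positive and 2 more negative in embryos for the difference, a share near the 10.6% of all genes. By limma-voom none was more positive and 2 were more negative. In embryos 1 rose and 1, *Hbs1l* itself, fell (none and 1 with the embryos fitted alone). The genes called for the difference were *Map3k20*, which encodes the ribotoxic stress kinase ZAK (0.79, adjusted p = 0.0106), the rescue GTPase *Gtpbp1* (-0.80, adjusted p = 0.00694) and *Gcn1*, the sensor of collided ribosomes (-0.71, adjusted p = 0.0300). Of 16 genes of the exosome and Ski complex, 1 rose and 1 fell in embryos (none with the embryos fitted alone), 5 rose in MEFs and 4 were more negative in embryos for the difference, among them *Exosc7* (-0.92) and *Exosc3* (-0.80). The shares of all genes were 4.49% higher and 4.47% lower in embryos, 8.2% higher in MEFs and 5.19% more negative for the difference.

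RNA from mutant and control MEFs, sequenced in 3 libraries each, gave a second readout of the fibroblast side. No embryo RNA was analysed here. Of 10475 genes with a value, 2638 passed (25.2%), 1516 higher (14.5%) and 1122 lower (10.7%). Of the 1563 genes called for MEF RPF that had an RNA value, 942 were also called on RNA with the same sign, and the Pearson correlation across genes was 0.71. Among opposite genes, RNA changed with the MEF RPF for 25 of the 42 with a value that fell in MEFs and for 21 of the 28 that rose there, and against it for none. Among shared genes it did so for 37 of the 51 that fell and for 24 of the 48 that rose. *Col3a1* RNA rose by 1.05, *Pmaip1* RNA fell by 1.93 and *Acta1* RNA fell by 2.54. *Ctsd* and *Postn* were among those not called on RNA, with changes of -0.18 (adjusted p = 0.251) and 0.35 (adjusted p = 0.438). Of the 49 lysosome genes 9 fell on RNA and 1 rose, of the 40 mitosis genes 22 rose, and of the 11 interferon-stimulated genes 8 rose.

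The promoters of these genes were searched for motifs that are textbook binding sites of factors known for each list, in RefSeq windows from 250 bases before to 50 bases after the start (GRCm38.p6), on both strands. The ISRE (TTTC, NN, TTTC) was found in 5 of 10 interferon-stimulated promoters, against 2.57% of the promoters of genes tested and 3.44% of all promoters in the table. The CHR element (TTTGAA) was found in 27 of 34 mitosis promoters (11.3% of those tested, 17.9% of all) and an E2F site (TTTGGCGC) in 6 of 37 replication promoters (1.11% and 0.514%). The core of the CLEAR element (TCACGTGA) was found in 5 of 37 lysosome promoters (2.24% and 0.974%), the CArG box in 7 of 39 contractile gene promoters (1.33% and 1.63%) and the hypoxia response element (ACGTG) in 18 of 33 promoters of the hypoxia list (26.8% and 19.6%). TCACGTGA contains ACGTG, so that these matches overlap. A match describes these letters in the window and does not show binding. Windows around matches are given for 8 genes of the lists described above, 5' to 3' on the strand of the gene, with the motif in capitals. They lie at chr7:142387899-142387946 (minus strand, *Ctsd*), chr10:41519392-41519439 (plus, *Cd164*), chr2:114052893-114052942 (minus, *Actc1*), chr2:156775283-156775332 (plus, *Myl9*), chr8:71537567-71537622 (minus, *Bst2*), chr10:128270256-128270305 (plus, *Stat2*), chr6:125191684-125191729 (minus, *Ncapd2*) and chr8:75109340-75109387 (plus, *Mcm5*).
Ctsd: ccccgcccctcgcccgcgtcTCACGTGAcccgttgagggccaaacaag
Cd164: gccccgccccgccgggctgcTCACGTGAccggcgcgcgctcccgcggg
Actc1: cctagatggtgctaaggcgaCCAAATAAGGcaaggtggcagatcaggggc
Myl9: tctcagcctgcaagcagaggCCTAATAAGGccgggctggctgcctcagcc
Bst2: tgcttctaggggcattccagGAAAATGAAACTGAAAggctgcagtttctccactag
Stat2: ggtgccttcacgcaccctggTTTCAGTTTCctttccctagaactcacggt
Ncapd2: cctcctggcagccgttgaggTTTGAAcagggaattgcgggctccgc
Mcm5: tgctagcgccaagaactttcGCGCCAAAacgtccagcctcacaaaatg

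The windows of *Ctsd* and *Cd164* carry the lysosomal motif, and both genes rose in embryos, by 0.79 and 0.62, with -0.66 and -0.21 in MEFs. The embryo changes of the other lysosome genes with this motif, *Mcoln1* (0.05), *Atp6v0d1* (0.12) and *Gla* (0.07), did not pass. Those of *Actc1* and *Myl9* carry the CArG box, and both fell in both tissues. Among the other contractile genes with a CArG box, *Cnn2* (-0.07) and *Vcl* (-0.06) did not pass in embryos. The windows of *Bst2*, which holds overlapping matches on the reverse strand, and *Stat2* carry the ISRE, and both genes rose in MEFs, with differences of -2.05 and -1.93. The other interferon-stimulated genes with an ISRE had smaller differences: *Ddx58* (-0.94), *Eif2ak2* (-0.85) and *Irgm1* (-0.33). *Ncapd2* and *Mcm5* rose in MEFs only by the tests above, with differences of -0.98 and -1.12. Among mitosis genes with a CHR element, the differences ranged from -1.31 (*Espl1*) to 0.14 (*Hmmr*).

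**Figure D5:**
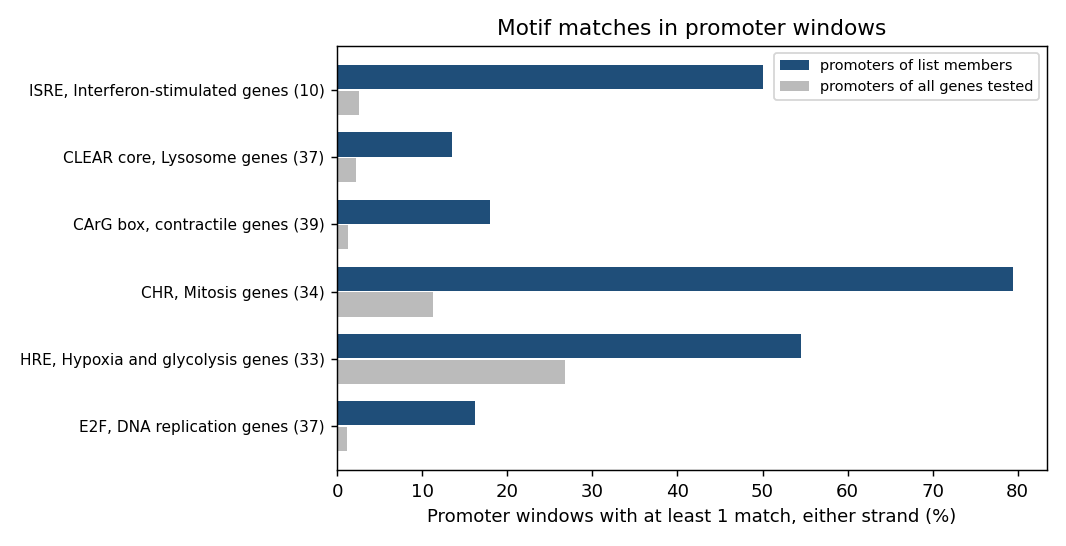
Share of promoter windows with at least 1 match of each motif (%), for members of the list named with it (number of promoters in parentheses) and for the promoters of all genes tested. The share of list members was 79.4% for the CHR element in mitosis genes and lay above that of all genes tested for each motif.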

How the data were processed

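RPF were measured in 6 libraries of E8.5 embryos and 6 of MEFs, grouped by the labels. The authors deposited raw counts per gene, without normalization. By the methods and the submitters' processing notes they removed ribosomal and other structural RNA with Bowtie2 2.2.3, mapped to mm10 with HISAT2 2.1.0 and counted coding sequence with featureCounts. For MEF RNA the authors deposited estimated counts per transcript from kallisto 0.42.4, here summed per gene and rounded, a readout added after the data were seen. Reads that fit several near-identical genes can be lost or misassigned in the RPF counts.

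The 100 genes with histone symbols were left out, as the authors did. Genes had to pass edgeR's filter within both tissues. One quasi-likelihood fit with TMM factors (edgeR 4.0.16, R 4.3.3) gave both effects and their difference, with Benjamini-Hochberg adjustment over the 10515 genes and a threshold of 0.05. CPM use those TMM factors. The study's methods test each mutant against its own controls, which was run as an alternative, with limma-voom (limma 3.58.1), DESeq2 1.42.0, other filters and factors, thinning and each library left out. The scripts were tested on simulated data with 1 spread per gene for all groups, which does not cover the unequal spread described above. The labels do not say that the embryo pools are independent litters, so p-values measure the spread between these libraries. No pair of replicates agreed within sampling noise.

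The members and lists were chosen with earlier results of these data known. Named were *Hbs1l* and *Pelo*, the 8 largest differences in each direction, and 6 shared and 6 opposite genes in each direction, with at least 5 CPM in both tissues, plus members of the lists. For differences, mutant and control libraries also had to be apart in the tissue with the larger effect. RNA, RPF and promoter windows matched by gene symbol, and positions came from Gencode M21 (GRCm38).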

Additional observations from a re-analysis of the deposited data

Results flagged for a closer look

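The effect of *Hbs1l* loss differed between embryos and MEFs by the test of the difference itself (edgeR's quasi-likelihood test) for 25 of the 36 genes named. The difference, embryo minus MEF on the log2 scale, was positive for *Adm* (4.07), *Serpinb9b* (3.53), *Lgals9* (3.38), *Nppb* (3.35), *Procr* (3.32), *Rgs5* (3.22), *Pmaip1* (3.20), *Trpv2* (3.18), *Cox6b2* (2.51), *Nup62cl* (2.33) and *Synpo2l* (1.43). It was negative for *Uba7* (-3.48), *Pgk1* (-2.97), *Penk* (-2.84), *Emilin2* (-2.80), *Rnf213* (-2.79), *Rpl10a* (-2.76), *Thbs4* (-2.57), *Rpl27a* (-2.56), *Olfml3* (-2.29), *Col3a1* (-2.28), *Bst2* (-2.05), *Cdc25b* (-1.89), *Stab1* (-1.84) and *Postn* (-1.78). *Pgk1*, *Rpl10a* and *Rpl27a* have near-identical copies and uncertain values, and each had its highest RPF in the 3 wild-type embryo libraries. *Synpo2l* fell in both tissues and *Bst2* rose in both, so that for these genes the difference is one of size. The difference of *Synpo2l* was near the threshold (adjusted p = 0.0484) and was called in 4 of 18 alternatives. The genes were chosen for a large difference or for their calls, so that the values describe them and support nothing further.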

How the results depend on the processing

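The count of genes called for the difference (1119) stayed within 1.5 times its value under each alternative that kept all 12 libraries. The counts for single tissues depended most on how the spread was estimated. With each tissue on its own 6 libraries, 147 genes were called for the Hbs1l effect in embryos, 3617 for the Hbs1l effect in MEFs, 47 shared and 21 opposite, and with limma-voom weights for all contrasts, chosen after seeing the data, 279, 3759 and, for opposite genes, 41. DESeq2 gave 166 shared and 107 opposite genes, and thinning to the smallest library gave 984 calls in MEFs and 44 opposite genes. Leaving out each library in turn gave 543 to 2872 calls for the difference, 98 to 359 for list members, 320 to 3451 in embryos, 691 to 2640 in MEFs, 38 to 586 shared and 15 to 365 opposite. The highest counts all came without *Hbs1l* embryo replicate 1. The lowest came without control embryo replicate 3 (embryos, shared, opposite), control MEF replicate 2 (MEFs) or *Hbs1l* MEF replicate 1 (difference, lists). The replicate numbers were not shown to pair the libraries, since the correlations of deviations were 0.084, 0.118 and 0.087 in embryos and 0.073, 0.136 and 0.101 in MEFs, although each control correlated best with the mutant of its number. With the replicate block, 169 genes were shared. Among the named genes no direction reversed, and over the 20 alternatives a call was lost 96 times for the embryo effect, 24 times for the difference and 13 times for the MEF effect. The embryo groups had fewer RPF at the median and a larger spread, and the part of each in their lower counts was not tested.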
